A study of Mus musculus with 12 samples.

Results

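The miR-200 family and miR-205 are microRNAs best known from epithelia, and 6 of them were measured in mouse epididymal fat after developmental exposure to a high-fat diet. The members were taken by name from the 504 microRNA assays of the panel: mmu-miR-200b-3p, mmu-miR-200a-3p, mmu-miR-429, mmu-miR-200c-3p, mmu-miR-141-3p and mmu-miR-205-5p, written below without the species prefix. Each had a value in all 12 samples. Male wild-type C57BL/6J mice were assigned to 4 groups, and quantitative RT-PCR was run on 3 pooled RNA samples from 12 mice in each group. In UT the high-fat diet, with 45% of energy from fat, reached the mice through the dam during gestation. In UL it ran from mating up to weaning, and in WL it ran from mating until the animals were killed at 23 weeks. CD received the matched purified control diet, with 10% of energy from fat, and no high-fat diet. The parents of all groups ate a standard breeding chow before mating, and the strain carried no engineered allele. A pool stands for several mice, so the spread between animals was not measured, and the litters behind each pool were not given in the sources used here.

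MicroRNAs of the miR-200 family maintain the epithelial state by repressing Zeb1 and Zeb2, transcription factors that switch off E-cadherin and other epithelial genes. Zeb1 and Zeb2 in turn repress the family's own genes, so both sides form a mutual repression loop. MiR-205 also targets Zeb1 and Zeb2 but comes from a separate gene and is a marker of stratified and glandular epithelia. The epididymal fat pad is made of adipocytes, stromal and vascular cells and leukocytes under a mesothelial covering, and it lies against the epididymis, a duct lined by epithelium.

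The mature sequences are shown because the family is defined by its seed, bases 2 to 8 from the 5′ end, which pairs with target messages. They come from RefSeq on build GRCm38.p6, where all 6 members were matched, and capitals mark the seed.
miR-200b-3p: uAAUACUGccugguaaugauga
miR-200c-3p: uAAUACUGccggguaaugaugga
miR-429: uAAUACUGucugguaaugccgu
miR-200a-3p: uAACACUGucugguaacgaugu
miR-141-3p: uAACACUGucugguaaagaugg
miR-205-5p: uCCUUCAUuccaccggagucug
The first 3 share the seed AAUACUG, and miR-200a-3p and miR-141-3p share AACACUG. With positions counted from 1 at the 5′ end, the seed of miR-200a-3p differs from that of miR-200b-3p by U4C. Outside the seed, miR-141-3p differs from miR-200a-3p only by C17A and U22G, and over the first 22 bases miR-200c-3p differs from miR-200b-3p only by U11G and A22G. MiR-429 differs from miR-200b-3p by C9U, A19C, U20C and A22U. MiR-205-5p has an unrelated sequence, with 15 to 17 mismatches to the family members over 22 bases. How well the assays separate members that differ at 2 bases was not stated in the sources used here.

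The 5 family members come from a pair of gene clusters, all on the minus strand. Mir200b, Mir200a and Mir429 lie within 1846 bases at chr4:156053905-156055750, inside the annotated long noncoding RNA gene Gm13648. Mir200c and Mir141 lie within 477 bases at chr6:124717914-124718390, where the annotation has no overlapping gene. Mir205, at chr1:193507463-193507530, lies inside its host gene Mir205hg, also a long noncoding RNA. Thus each cluster holds both seeds, and seed and locus cross each other.

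Levels are given as relative levels, in cycles on the log2 scale: the mean threshold cycle (Ct) of the pool over the 466 microRNAs measured in all pools, minus the Ct of the assay. A higher relative level means earlier detection, and 1 cycle corresponds to a 2-fold step if the PCR is fully efficient. Mean Ct of the 12 pools ranged from 24.57 to 25.06, and 492 to 506 assays gave a value per pool. UT 2 and WL 3 stood farthest from their group means over all microRNAs (SD of the deviations 0.85 and 0.97 cycles, against 0.39 to 0.80 in the other 10 pools), so results are also given without them where this matters. The 7 adipocyte-enriched microRNAs measured averaged 3.39 to 4.32 cycles above the average microRNA in every pool. They were not uniform: their mean levels ran from -0.25 for miR-107-3p to 7.77 for miR-26a-5p. By mean relative level the members ranked between 91 (miR-200c-3p) and 163 (miR-429) of 466 microRNAs. This order compares assays whose efficiencies are not known.

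In the chromosome 4 cluster, miR-200b-3p had relative levels of 0.63, 2.95 and 0.11 in UT pools 1 to 3, 2.64, 2.33 and 4.31 in UL, 2.30, 4.67 and 4.21 in WL, and 3.78, 1.38 and 4.63 in CD. UT 1 and UT 3 were below every other pool, while UT 2 lay among the pools of the other groups. MiR-200a-3p, its neighbour with the other seed, had -0.34, 1.49 and -0.54 in UT, 3.14, 1.95 and 3.13 in UL, 1.49, 3.81 and 3.47 in WL, and 3.39, 1.22 and 2.87 in CD. Again UT 1 and UT 3 were the lowest, and CD 2 lay below UT 2. MiR-429, from the same cluster, had 0.62, -0.19 and 2.29 in UT, 1.27, 2.36 and 2.64 in UL, 0.87, 1.89 and -1.08 in WL, and 2.68, 1.21 and 2.80 in CD. Its order of pools was different: WL 3 was the lowest and UT 2 the next, and UT 3 lay among the CD pools.

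In the chromosome 6 cluster, miR-200c-3p had 0.70, 3.05 and 0.92 in UT, 4.48, 2.90 and 4.35 in UL, 2.94, 5.35 and 5.03 in WL, and 4.91, 2.30 and 4.80 in CD. MiR-141-3p had -0.41, 3.33 and -0.02 in UT, 4.68, 2.70 and 3.71 in UL, 1.59, 5.49 and 4.41 in WL, and 5.60, 2.22 and 4.07 in CD. Both had UT 1 and UT 3 as their lowest pools, well apart from UT 2. MiR-205-5p, from chromosome 1, had 0.24, 2.84 and 0.42 in UT, 4.57, 3.17 and 3.81 in UL, 3.15, 5.29 and 4.85 in WL, and 5.20, 1.92 and 4.80 in CD. Its UT pools were all below its UL and WL pools, but UT 2 was above CD 2. In these 5 members other than miR-429, UT had the lowest mean of the 4 groups, by more than the SD of UT or of the group next above it. The means of UL, WL and CD lay within 0.63 cycles of each other in each of the 5, less than the SD of any of those groups. For miR-429 WL had the lowest mean, and its distance to UT was less than the SD of either group.

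**Figure D1:**
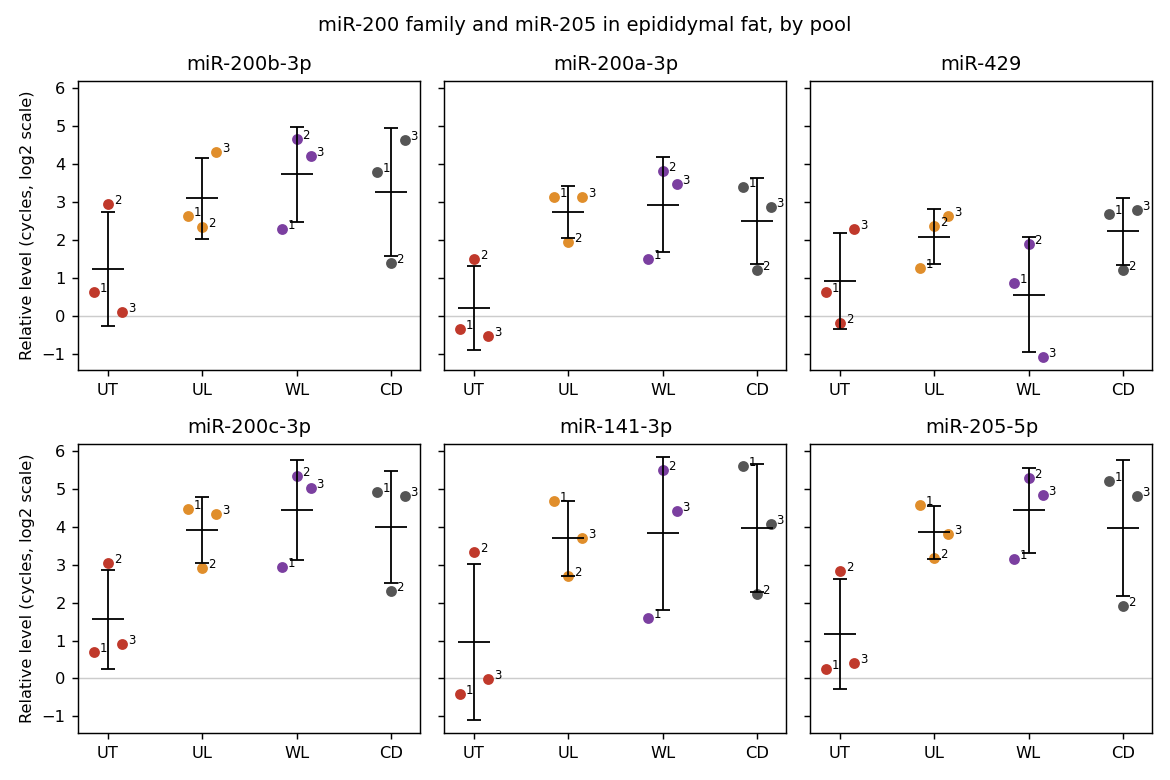
Relative level (cycles, log2 scale) of the 6 members in each pool by group. Points are pools with their replicate number, the black bar is the group mean and the error bar the SD of 3 pools. UT 1 and UT 3 lie lowest in every panel except that of miR-429, and UT 2 lies apart from them.

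Within a group the members varied widely. MiR-141-3p spanned 3.75 cycles between the UT pools, 1.98 between the UL pools, 3.91 between the WL pools and 3.38 between the CD pools, which is a 10.4-fold difference between the highest and lowest CD pool. The within-group SD was 1.74 cycles for miR-141-3p, 1.40 for miR-200b-3p, 1.33 for miR-205-5p, 1.26 for miR-200c-3p, 1.14 for miR-429 and 1.07 for miR-200a-3p. The median of the 466 microRNAs was 0.52, and the members took ranks 12 to 66 from the widest. The spread of the members was thus above that of the typical assay in each of the 6.

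The comparison of UT with CD addresses high-fat exposure during gestation, read out in adult fat. The labels do not spell out the diet of UT and UL mice after their exposure ended. All 6 members had a lower mean in UT than in CD, but none passed the test at an adjusted p of 0.05 (limma over all 12 pools, Benjamini-Hochberg over 504 microRNAs), against 1.39% of all microRNAs that did. The mean relative level of miR-141-3p was 0.97 ± 2.06 in the UT pools, against 3.96 ± 1.69 in the CD pools (SD, 3 pools each), which is -3.00 on the log2 scale, or 8.0 times lower (SE 1.22, 95% interval -5.66 to -0.33, adjusted p by limma 0.435). MiR-205-5p stood at 1.17 ± 1.45 in the UT pools, against 3.97 ± 1.78 in the CD pools, which is -2.80 on the log2 scale, or 6.96 times lower (SE 0.94, 95% interval -4.87 to -0.74, adjusted p by limma 0.28). MiR-200c-3p stood at 1.56 ± 1.30 in the UT pools, against 4.00 ± 1.47 in the CD pools, a difference of -2.44 (SE 0.89, adjusted p by limma 0.371). These 3 members carry the widest mean differences. Each has an interval that leaves out 0 before adjustment, as does miR-200a-3p.

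MiR-200a-3p stood at 0.20 ± 1.12 in the UT pools, against 2.49 ± 1.13 in the CD pools, a difference of -2.29 (SE 0.77, 95% interval -3.97 to -0.60, adjusted p by limma 0.28). MiR-200b-3p differed by -2.03 (SE 0.99, 95% interval -4.20 to 0.13, limma adjusted p = 0.513) and miR-429 by -1.32 (SE 0.81, 95% interval -3.11 to 0.46, limma adjusted p = 0.612). At an unadjusted p under 0.05, 4 of the 6 were lower in UT, against 3.77% of all microRNAs. The members other than miR-429 vary together, and all 6 were chosen with results of these data known. They are therefore not 6 separate pieces of evidence. Their median log2 fold change was -2.37, against -0.01 over all microRNAs tested, of which 51.2% were below 0.

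The pools of UT and CD overlapped in all 6 members, whereas 14% of microRNAs measured in full in both groups did not overlap between these groups. In each member 2 of the 3 UT pools were below the lowest CD pool, and 1 was above it. For 5 members the pool above was UT 2, and for miR-429 it was UT 3. With UT 2 and WL 3 left out together, a choice made after seeing the data, the difference was -4.18 for miR-141-3p (limma adjusted p = 0.101) and -2.93 for miR-200a-3p (SE 0.77, limma adjusted p = 0.083). Without CD 2 the difference of miR-205-5p was -3.83 (SE 0.84, limma adjusted p = 0.0731). The difference was smaller without other pools. Without CD 1 the 6 members ran from -2.19 to -1.10 (limma adjusted p from 0.797 to 0.854), with miR-205-5p at -2.19, and without UT 2 alone miR-429 stood at -0.77. Leaving out 1 pool at a time, the difference ran from -4.18 to -2.18 for miR-141-3p, -3.83 to -2.19 for miR-205-5p, -3.29 to -1.99 for miR-200c-3p, -2.93 to -1.84 for miR-200a-3p, -2.97 to -1.35 for miR-200b-3p (the last without CD 3) and -2.01 to -0.77 for miR-429 (the first without UT 3). Over all 26 alternatives the adjusted p of the 6 members in UT against CD ranged from 0.0731 to 0.867, and no value changed direction. Fewer cells that express these microRNAs and less RNA per cell cannot be told apart in pooled tissue.

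UL, in which exposure continued through lactation, was close to CD in its means. The log2 fold changes against CD were 0.25 for miR-200a-3p, -0.09 for miR-200c-3p, -0.12 for miR-205-5p, -0.14 for miR-429, -0.17 for miR-200b-3p and -0.27 for miR-141-3p, with SE from 0.77 to 1.22. The adjusted p was 0.995 for each (limma), 0 members passed (0.595% of all microRNAs did) and 0 had an unadjusted p under 0.05 (2.78% of all did). The intervals were wide, for miR-141-3p from -2.93 to 2.40, so similar means here do not show that the groups were alike.

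WL, exposed throughout life, had log2 fold changes against CD of 0.46 for miR-200b-3p, 0.46 for miR-205-5p, 0.44 for miR-200c-3p, 0.43 for miR-200a-3p and -0.14 for miR-141-3p (limma adjusted p from 0.978 to 0.994). MiR-429 stood farthest from CD by value, with 0.56 ± 1.51 in the WL pools, against 2.23 ± 0.88 in the CD pools (SD, 3 pools each), a difference of -1.67 (SE 0.81, 95% interval -3.45 to 0.11, limma adjusted p = 0.716). In this comparison 0 members passed, against 0.595% of all microRNAs, and 0 had an unadjusted p under 0.05, against 7.14%. WL 3, at -1.08, and WL 1, at 0.87, were below the lowest CD pool for miR-429, and without WL 3 its difference was -0.85.

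**Figure D2:**
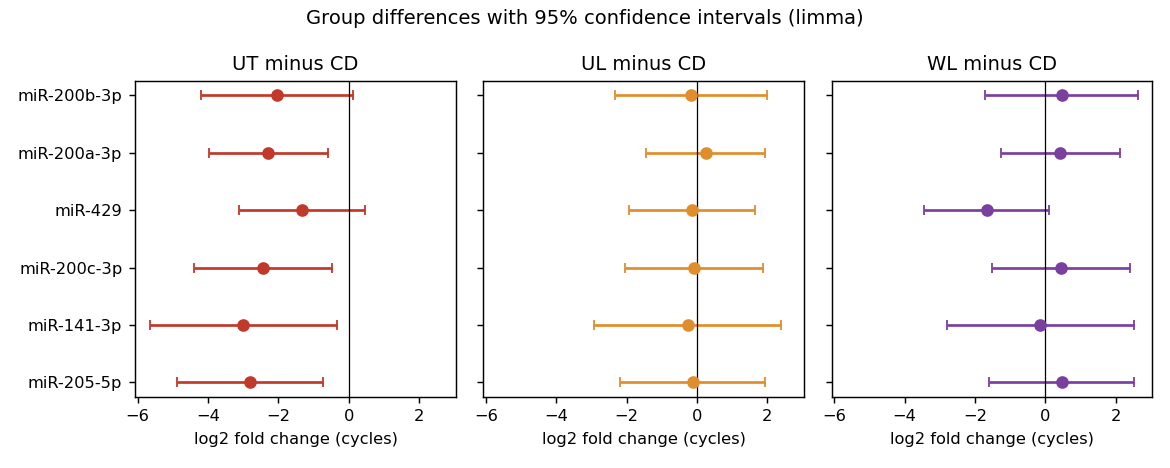
Log2 fold change against CD for each member in UT, UL and WL. Points are limma estimates and bars their 95% intervals from 3 pools a group, with 0 drawn as the line of no difference. The UT points are all below 0, and the UL and WL points cluster around 0 except miR-429 in WL.

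Against UT, the other high-fat groups had higher means for most members. In WL against UT, miR-205-5p stood at 4.43 ± 1.13 in the WL pools, against 1.17 ± 1.45 in the UT pools (SD, 3 pools each), a difference of 3.26 (SE 0.94, 95% interval 1.20 to 5.32, limma adjusted p = 0.192), and its 3 WL pools were all above its 3 UT pools. MiR-205-5p alone, 1 of the 6 members, had no overlap in this direction, a separation that 9.98% of all microRNAs showed. MiR-200a-3p differed by 2.72, miR-200c-3p by 2.88, miR-141-3p by 2.86 and miR-200b-3p by 2.49 (limma adjusted p from 0.192 to 0.283), and miR-429 by -0.35 (limma adjusted p = 0.878), which was 0.47 without WL 3. None passed, and 0% of all microRNAs did in this comparison (limma). At an unadjusted p under 0.05, 5 of 6 members were higher in WL, against 7.14% of all microRNAs.

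In UL against UT, all 6 members were higher by value, from 1.18 for miR-429 to 2.73 for miR-141-3p. MiR-200a-3p stood at 2.74 ± 0.68 in the UL pools, against 0.20 ± 1.12 in the UT pools (SD, 3 pools each), a difference of 2.54 (SE 0.77, limma adjusted p = 0.322), and miR-205-5p differed by 2.68 (SE 0.94, limma adjusted p = 0.512). These were the 2 members whose 3 UL pools all lay above the 3 UT pools, as did 4.78% of all microRNAs. None of the 6 passed and 0% of all microRNAs did, while 4 of 6 had an unadjusted p under 0.05 in this direction, against 3.77%. For the 5 members other than miR-429, the 3 widest differences all involve UT, so they share its pools and are not separate observations. MiR-429 differed most in WL against CD and WL against UL. Without UT 2 its UL minus UT difference was 0.64, and without UT 3 it was 1.88.

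WL and UL differed little in 5 members, by 0.63 for miR-200b-3p, 0.58 for miR-205-5p, 0.53 for miR-200c-3p, 0.18 for miR-200a-3p and 0.13 for miR-141-3p, and by -1.53 for miR-429 (limma adjusted p from 0.805 to 0.988). Without WL 3 the difference of miR-429 was -0.71. The comparison had 0 members past the threshold and 0% of all microRNAs (limma), and 0 members had an unadjusted p under 0.05, against 5.36%. In a test over all 4 groups at once (limma F test), the adjusted p ran from 0.318 for miR-200a-3p to 0.665 for miR-429, so 0 members passed, against 0.397% of all microRNAs. At an unadjusted p under 0.05 the F test took 3 of 6, miR-200a-3p, miR-200c-3p and miR-205-5p, against 9.92%.

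Across the 12 pools, 5 of the members moved together. Among the 10 pairs that leave out miR-429, Pearson's r ran from 0.87 (miR-200b-3p with miR-141-3p) to 0.99 (miR-200a-3p with miR-200c-3p, and miR-200c-3p with miR-205-5p), and Spearman's rho from 0.80 to 0.97. In permutation tests with 100000 resamples, adjusted over the 15 pairs of members, p lay between 3.7e-05 and 0.00057 for r, the lowest coming from 1e-05, the smallest that many resamples can give. With the 2 pools farthest from the median left out, r was 0.71 to 0.97, and with group means removed it was 0.80 to 0.99. With the UT pools and WL 3 left out, a choice made after seeing the data, it was 0.70 to 0.97 over 8 pools. It crossed loci and seeds: miR-200c-3p and miR-200a-3p, on different chromosomes and with different seeds, differed by an amount that varied with an SD of only 0.28 cycles over the pools. The values share RNA, reverse transcription and the scaling by the pool's mean Ct.

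MiR-205-5p, which shares no sequence or locus with the family, followed it as closely as the family members followed each other. Its root mean square distance from the mean of the other members, leaving out miR-429, was 0.34 cycles, against 0.17 for miR-200c-3p, 0.33 for miR-200a-3p, 0.62 for miR-200b-3p and 0.64 for miR-141-3p. Averaged over those 5 members, the pools lay at 0.16, 2.74 and 0.18 in UT, 3.90, 2.61 and 3.87 in UL, 2.29, 4.93 and 4.39 in WL, and 4.58, 1.81 and 4.23 in CD. UT 1 and UT 3 were the 2 lowest pools in 5 of the 6 members. CD 2 was among the 4 lowest pools in 5 members and WL 1 in 4, so low pools were not confined to UT.

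**Figure D3:**
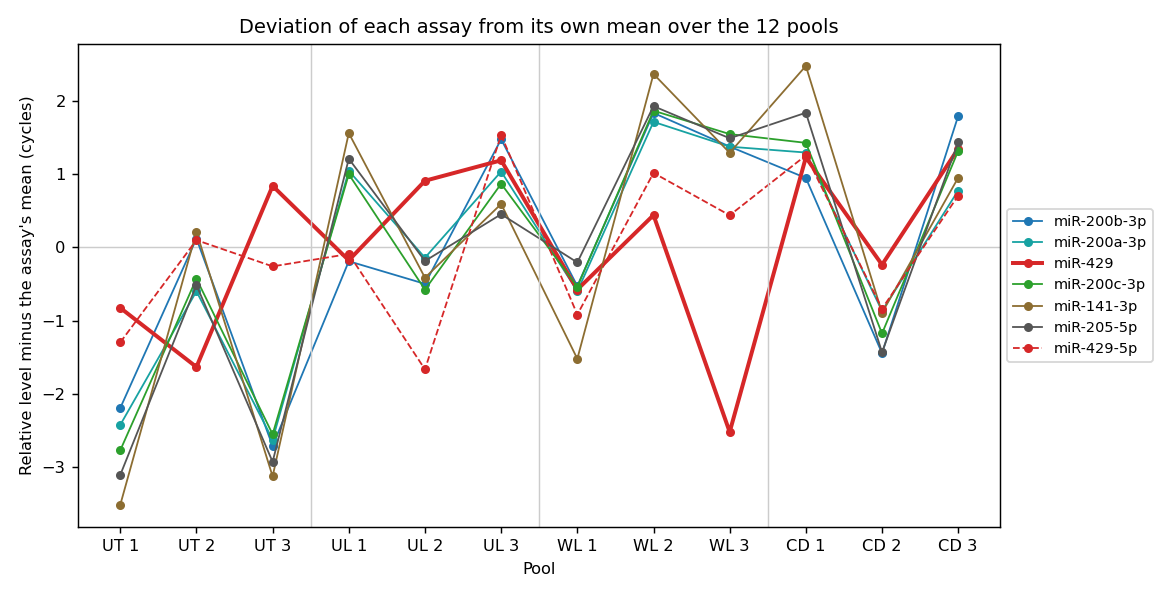
Relative level minus the assay's own mean over the 12 pools (cycles, log2 scale), 1 line per member plus a dashed line for miR-429-5p, with pools in order of group. The lines of 5 members run close together, low in UT 1, UT 3, CD 2 and WL 1, and the thick line of miR-429 departs from them, most in WL 3 and UT 3.

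MiR-429 stood apart from its cluster mates. Its correlation with the other 5 members was 0.10 to 0.12 (Pearson, 12 pools, permutation adjusted p = 0.75) with rho from 0.17 to 0.35. With group means removed r was -0.09 to 0.04. Its level minus the mean of miR-200a-3p and miR-200b-3p, which come from the same cluster, was 0.47, -2.41 and 2.51 in UT, -1.62, 0.22 and -1.08 in UL, -1.03, -2.35 and -4.92 in WL, and -0.91, -0.09 and -0.95 in CD. The extremes were WL 3 on the low side and UT 3 on the high side. Without the UT pools and WL 3, a choice made after seeing the values, its r with the other members over the remaining 8 pools was 0.48 to 0.70.

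The hairpin of Mir429, at chr4:156053905-156053987 on the minus strand, gives both arms, drawn in capitals, of which the 5′ arm was also on the panel: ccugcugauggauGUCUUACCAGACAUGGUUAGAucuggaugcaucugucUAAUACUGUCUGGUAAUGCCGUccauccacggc. The 5′ arm, miR-429-5p, was detected later, at Ct 29.12 to 32.43, and had relative levels of -7.09, -5.69 and -6.05 in UT, -5.88, -7.46 and -4.25 in UL, -6.71, -4.77 and -5.35 in WL, and -4.53, -6.63 and -5.08 in CD. The difference between the arms, miR-429 minus miR-429-5p, was between 4.27 cycles in WL 3 and 9.82 cycles in UL 2. The profile of miR-429-5p was closer to the family mean (root mean square difference 0.84 cycles) than to miR-429 itself (1.33 cycles). The opposite arms of the other members were not found by name among the 504 microRNA assays.

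The microRNAs whose profiles over the 12 pools were most like the mean of the 5 family members were miR-153-3p (root mean square difference 0.64 cycles), miR-98-5p (0.81), miR-489 (0.84), miR-429-5p (0.84) and miR-196b-5p (0.86), among 460 candidates. A flat profile would lie at 1.28. The family mean includes miR-429. Relative levels were low for miR-153-3p (-8.79 to -3.75), miR-489 (-8.36 to -4.49) and miR-429-5p (-7.46 to -4.25). They were higher for miR-98-5p (-2.35 to -0.16) and miR-196b-5p (1.27 to 3.72). For miR-205-5p the closest were miR-153-3p (0.82), miR-98-5p (1.10), miR-489 (1.10), miR-196b-5p (1.11) and miR-101a-3p (1.21), where a flat profile lies at 1.68. MiR-98 belongs to the let-7 family and miR-196b lies in a Hox cluster. For miR-429, chosen after its profile was seen to differ, the closest were miR-137-3p (0.38), miR-182-5p (0.40), miR-135b-5p (0.54), miR-222-3p (0.56) and miR-135a-5p (0.61), with a flat profile at 1.18. MiR-182-5p, of the miR-183 cluster of epithelial and sensory cells, lay 1.43 cycles from the family mean.

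**Figure D4:**
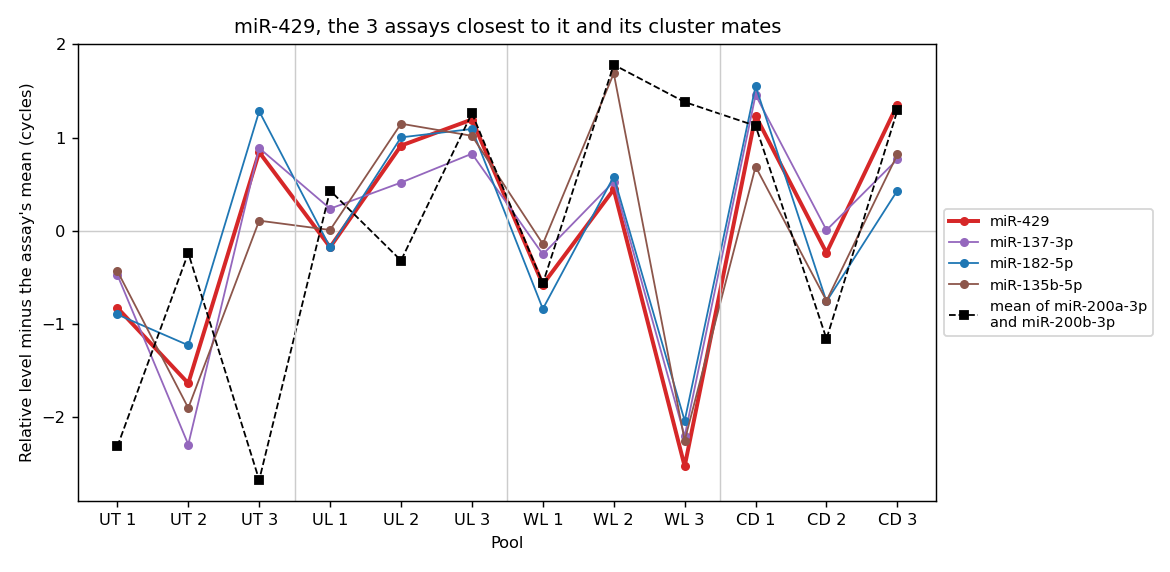
Relative level minus its mean over the 12 pools (cycles, log2 scale) for miR-429, the 3 assays closest to it and its cluster mates, over the pools by group. MiR-429 and miR-137-3p, miR-182-5p and miR-135b-5p are all low in UT 2 and WL 3, while the mean of miR-200a-3p and miR-200b-3p, the dashed line, is near or above its own average there.

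Markers of cell types in the pad gave values beside which these results can be read, and their part in the results was not tested. Over all microRNAs tested, 51.2% were below 0 in UT against CD, and the median was -0.01. Of the other epithelial microRNAs, 9 of 13 were measured and 7 of the 9 were below 0 in UT against CD (median -0.23), with miR-203-3p of skin epithelium at -0.02, miR-183-5p at -0.38 and miR-192-5p of gut epithelium at -0.23. The mean level of the 8 epithelial microRNAs with a value in every pool lay between -0.54 and 0.56 in the UT pools, against -0.27 to 0.19 in the CD pools. It was -0.27 in UT 1, -0.54 in UT 2 and 0.56 in UT 3. The value in UT 3 holds 1 assay that stood apart, miR-31-5p, at 4.91 in UT 3 and between -1.28 and 0.92 in the other pools. Without it, a choice made after seeing the data, the mean of the other 7 was -0.34, -0.44 and -0.06 in UT 1 to 3, against 0.09, -0.28 and 0.12 in CD. Of the testis and epididymis list, 11 of 20 were measured and 10 of the 11 were above 0 in UT (median 0.87), with miR-34c-5p at 0.49, miR-34b-5p at 0.66 and miR-742-3p at -0.71. Its mean level was 0.18 in UT 1, 0.04 in UT 2 and -1.34 in UT 3, against -1.51 to -0.70 in CD, so UT 3 lay within the CD range. None of these list members passed the threshold.

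Stromal and smooth muscle microRNAs were below 0 in 10 of 11 in UT against CD (median -0.51), where 51.2% of all microRNAs were. The list held miR-29c-3p at -0.51, miR-145a-5p at -0.31 and miR-21a-5p at 0.12. Its mean level was 4.17 to 4.63 in UT and 4.74 to 4.96 in CD. Adipocyte microRNAs had a median of -0.27, with miR-26a-5p at -0.02, miR-26b-5p at 0.37 and miR-30c-5p at -0.63. Leukocyte microRNAs had a median of -0.74, with 4 of 6 below 0: miR-150-5p stood at -0.81, miR-142-3p at -1.01 and miR-146a-5p at 0.76. The 4 endothelial microRNAs had a median of -0.35, with miR-126a-3p at -1.19, its opposite arm miR-126a-5p at 1.36 and miR-222-3p at -0.35. The 5 muscle microRNAs had a median of -0.22, with miR-133a-3p at 0.08, miR-133b at -0.22 and miR-206-3p at -0.94. No member of any list passed in UT against CD (limma), where 1.39% of all microRNAs did.

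Assays with neighbouring microRNA accession numbers were looked at too, since the plate layout was not stated and such assays may or may not lie close on a plate. The median deviation of the 10 assays nearest to each member in that order, a choice made after seeing the data, stayed between -0.91 and 0.48 cycles in all pools, with an SD of 0.17 to 0.37, against an SD over the pools of 1.23 to 1.97 for the members. The lowest value, -0.91, was that of the neighbours of miR-429 in WL 3, and their highest, 0.41, was in UT 3, the pools where miR-429 itself lay farthest below and above its cluster mates. Other pools did not match in this way. The neighbours stood at 0.40 in UL 2, where miR-429 minus the mean of its cluster mates was 0.22. In UT 2 they stood at -0.14, where that difference was -2.41. With neighbours subtracted, miR-429 differed by -1.54 in WL against CD. Subtracting it left the UT differences at -2.75 to -1.53, with an adjusted p of 0.351 or more (limma).

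The authors' deposited table of fold changes lists ratios against CD in which a value above 1 means a later Ct, as tested on their values, and so less template. It lists miR-205-5p in UT at 5.65, miR-141-3p at 8.81 and miR-200c-3p at 4.98, and the same ratios came out of the deposited normalized values of the UT pools. The listed and recomputed ratios divide arithmetic means of the normalized values. The fold changes above are differences of means on the log2 scale, such as 6.96 times lower for miR-205-5p in UT, so they need not be equal. For UL and WL the authors' deposited table lists miR-205-5p at 2.95 and 2.80, whereas the ratio recomputed from those groups' own pools was 0.709 in UL and 0.569 in WL. Over all 506 assays, the UL column of the authors' deposited table equalled the mean of UT 2, UT 3 and UL 1 over CD, and the WL column that of UT 3, UL 1 and UL 2 (within 0.0001 on the log2 scale). For miR-429 the authors' deposited table lists 1.16 in WL, against 4.32 recomputed from the WL pools. The UL column thus holds a pair of UT pools and the WL column holds UT 3 and no WL pool, and the values above come from the Ct table alone.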

How the data were processed

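The members and marker lists were chosen with earlier results of these data known. Total RNA was isolated with miRNeasy, per the labels' protocols, and the PCR platform and the rule for Ct were not stated there. The authors deposited Ct values, in which lower means more template, normalized ratio values and a table of fold ratios; per the file headers the normalized values are ratios, but in each pool Ct and log2 of the ratio differed by a constant (24.74 to 25.46 over the pools, varying by at most 0.01 within one), so the ratios rise with Ct. The Ct table listed 507 assays, of which 1 repeated row was dropped, leaving 504 microRNAs and reference RNAs. Relative levels were tested with limma 3.58.1 (R 4.3.3; prior degrees of freedom 3.36), two-sided, in 1 model of 4 groups over 12 pools, keeping assays with Ct under 35 in at least 3 pools and leaving missing values missing. Adjusted p used Benjamini-Hochberg over 504 microRNAs. P-values measure the spread between pools, and the number of pools limits precision. The fit was tested on simulated data. Correlations used 100000 permutations (numpy 2.4.6). Named microRNAs are the members, their measured opposite arms, the 5 closest profiles to the family mean and to miR-205-5p, and per list the 3 with the highest level; those closest to miR-429 were added after seeing values. Alternatives were other scalings, filters, variance settings, pools left out, a replicate block and 2 added after seeing the data. The deviations of same-numbered pools correlated with r over 0.1 in 7 of 18 pairs and over 0 in 10 (r -0.27 to 0.26), so the numbers were not treated as pairing.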

Additional observations from a re-analysis of the deposited data

How the results depend on the processing

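None of the 936 alternative fits of the members' fold changes (26 for each of 36 member and comparison values) passed the threshold, and none of UT against CD changed direction (-4.18 to -0.58). The 52 reversals were in other comparisons, none of them in UL against UT. The results that reversed have values in the report between -0.35 and 0.53, and the cause was not tested. In UL against CD, scaling to RNU-43 gave 0.19 for miR-200b-3p, 0.23 for miR-429, 0.27 for miR-200c-3p, 0.10 for miR-141-3p and 0.24 for miR-205-5p, array weights gave 0.13 for miR-200b-3p and 0.09 for miR-429, scaling to 50 stable microRNAs gave 0.03 for miR-200c-3p and 0.00 for miR-205-5p, and subtracting neighbouring assays gave 0.33 for miR-200c-3p. In WL against UL, miR-200a-3p was -0.17 with RNU-43, -0.08 with array weights, -0.15 with neighbours subtracted and -0.09 without UT 2 and WL 3. MiR-141-3p was -0.22, -0.09 and -0.16 with RNU-43, array weights and those pools left out, and miR-200c-3p was -0.05 with neighbours subtracted. In WL against UT, miR-429 was 0.36 with array weights. Its correlations under RNU-43 were -0.10 with miR-200b-3p, -0.07 with miR-200a-3p, -0.09 with miR-200c-3p, -0.05 with miR-141-3p and -0.07 with miR-205-5p. RNU-43 moved the median of all microRNAs in UT against CD to 0.73 from -0.01, and the members to -2.26 to -0.58.

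Leaving out each pool in turn, WL against CD ran from -0.48 to 1.18 for miR-200b-3p, -0.20 to 1.15 for miR-200a-3p, -0.41 to 1.19 for miR-200c-3p, -1.01 to 0.99 for miR-141-3p and -0.57 to 1.10 for miR-205-5p. UL against CD ran from -1.11 to 0.51 for miR-200b-3p, -0.38 to 0.70 for miR-200a-3p, -0.64 to 0.27 for miR-429, -0.94 to 0.41 for miR-200c-3p, -1.14 to 0.55 for miR-141-3p and -1.14 to 0.49 for miR-205-5p. WL against UL ran from -0.26 to 0.90 for miR-200a-3p and -0.70 to 1.25 for miR-141-3p, and WL against UT from -1.02 to 0.47 for miR-429. MiR-429 ran from -2.34 to -0.85 in WL against CD and from -2.20 to -0.71 in WL against UL. Correlations of miR-429 ran from -0.01 to 0.34 with miR-141-3p, -0.02 to 0.39 with miR-200b-3p, 0.00 to 0.41 with miR-200a-3p and -0.02 to 0.41 with miR-200c-3p.

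The count of all microRNAs past the threshold was less stable. In UT against CD it was 7, and 12 with RNU-43, 1 with complete assays only, 2 with missing values at Ct 40, 12 with array weights, 4 with neighbours subtracted, 15 without UT 2 and WL 3, and 1 to 10 leaving out 1 pool. In UL against CD it was 3, and 5 with RNU-43, 0 with complete assays, 1 with missing at Ct 40, 1 with Ct under 30, 0 with Ct 35 or later missing, 1 with a trend and robust prior, 6 with array weights, 6 without UT 2 and WL 3, and 2 to 6 leaving out 1 pool. In WL against CD it was 3, and 0 with complete assays, 1 with missing at Ct 40, 0 with Ct 35 or later missing, 6 with array weights, 1 in a fit of the groups compared, and 2 to 6 leaving out 1 pool. WL against UL had 0, and 1 without UT 2 and WL 3, and 0 to 1 leaving out 1 pool. WL against UT had 0, and 1 with RNU-43, 7 with array weights, 13 without UT 2 and WL 3, and 0 to 12 leaving out 1 pool. UL against UT had 0, and 4 with RNU-43, 7 with array weights, 11 without UT 2 and WL 3, 5 in a fit of the groups compared, and 0 to 8 leaving out 1 pool. With the replicate block the counts were 4 in UT against CD and 1 in UL against UT. The block changed no call of a member.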
